A study of Homo sapiens with 6 samples.

Results

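Messenger RNA levels of 10 cyclic AMP (cAMP) phosphodiesterase genes were examined in A549 cells, a human lung adenocarcinoma cell line, with and without knockdown of DDX17, which encodes a DEAD-box RNA helicase. The genes were PDE4A, PDE4B, PDE4C, PDE4D, PDE3A, PDE3B, PDE7A, PDE7B, PDE8A and PDE10A. They were chosen by symbol from a table of 29476 genes, as enzymes that hydrolyse cAMP, at a time when their differences between the groups were already known. Their differences between siDDX17 and siCtrl are therefore given as a description, with no p values, and counts of calls among them are not support for a difference. Both groups were A549 cells transfected with an siRNA by Lipofectamine 2000: a nontargeting siRNA in the control group (siCtrl, 3 libraries) and an siRNA against DDX17 in the DDX17 knockdown group (siDDX17, 3 libraries). The sample titles and the methods name siRNAs, whereas another label field gives the siCtrl samples a control plasmid and the siDDX17 samples a knockdown. The methods call the 3 libraries of each group biological replicates of this 1 cell line, and 1 siRNA sequence was used per group. Polyadenylated RNA was sequenced.

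cAMP is a second messenger made by adenylyl cyclases when G protein-coupled receptors are activated. It acts through protein kinase A (PKA), the exchange factors RAPGEF3 and RAPGEF4 and cyclic nucleotide-gated channels, and phosphodiesterases end the signal by hydrolysing it to AMP. PDE4, PDE7 and PDE8 enzymes are selective for cAMP, PDE3 enzymes hydrolyse cAMP and are inhibited by cGMP, and PDE10A hydrolyses both nucleotides. PDE4 inhibitors are used as drugs in inflammatory airway disease.

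The libraries held between 30658136 and 39182371 reads assigned to genes, and 15615 genes had enough reads for the test. DDX17 itself was at 176.8, 184.3 and 205.6 CPM (reads scaled to the effective library size) in siCtrl and at 32.1, 30.8 and 30.4 CPM in siDDX17. It fell by 2.60 on the log2 scale (SE 0.0685, adjusted p = 5.89e-11). The library siCtrl 1 stood apart from the others of its group. Its chi-square statistic per gene against siCtrl 2 and siCtrl 3 was 20.4 and 25.6, compared with 5.83 between siCtrl 2 and siCtrl 3 and between 3.62 and 5.49 among the siDDX17 libraries, so values without siCtrl 1 are given as well. All 8 of the epithelial and A549 markers looked for had enough reads. Their summed level was between 10410 and 11270 CPM in siCtrl and between 9288 and 9648 CPM in siDDX17. KRT8 was the highest, at a mean of 3291 CPM in siCtrl and 2709 CPM in siDDX17. EPCAM was the lowest, at 0.883 and 2.24 CPM, and rose by 1.35 on the log2 scale (adjusted p = 7.68e-05). KRT8, KRT18, KRT19 and AKR1C1 fell at an adjusted p below 0.05, and CDH1, VIM and ALDH1A1 did not pass. The groups overlapped for KRT18, which missed that limit in 7 of 14 alternative fits, and KRT19 missed it in 2. Of 8 markers of other cell types 7 were listed, with a sum of 3.37 to 3.90 CPM in siCtrl and 2.85 to 3.25 CPM in siDDX17. Most of that sum was COL1A1, at a mean of 3.175 CPM in siCtrl and 2.642 CPM in siDDX17. The leukocyte marker PTPRC stood at no more than 0.0591 CPM in any library.

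A cAMP response element, the sequence TGACGTCA, is the site that transcription factors of the CREB family bind. It was looked for on both strands in the start windows of RefSeq (250 bases before to 50 bases after a transcript start, GRCh38.p14). It was present in 2 of 30 windows (6.67%) of 8 of the genes, 1 in PDE7B and 1 in PDE4A, and in 649 of 35116 windows of all genes (1.85%). PDE3B had no window in the table, and the windows of PDE7A are not reported here. The shorter sites TGACG or CGTCA, which overlap each other inside the full site, were in 4 of the 30 windows (13.3%) and in 24.6% of all windows. The only window of PDE3A, chr12:20571829-20572128, lies inside the gene of the GENCODE annotation, which starts at 20368537. The pair of windows with the full site is shown since PDE7B was at a higher level in siDDX17 while PDE4A differed little. Capitals mark each shorter site and the full site. In PDE7B (chr6:135851451-135851750, plus strand) the full site begins at position -155 from the start, and in PDE4A (chr19:10416523-10416822, plus strand) it begins at -3, after several of the shorter sites. A match to these letters is a description of the sequence and says nothing of binding.
PDE7B: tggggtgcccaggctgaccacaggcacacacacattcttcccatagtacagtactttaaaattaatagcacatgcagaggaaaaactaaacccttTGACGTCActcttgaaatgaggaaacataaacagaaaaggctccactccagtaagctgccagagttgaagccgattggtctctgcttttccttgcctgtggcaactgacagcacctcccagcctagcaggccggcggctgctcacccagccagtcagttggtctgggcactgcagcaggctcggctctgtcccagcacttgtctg
PDE4A: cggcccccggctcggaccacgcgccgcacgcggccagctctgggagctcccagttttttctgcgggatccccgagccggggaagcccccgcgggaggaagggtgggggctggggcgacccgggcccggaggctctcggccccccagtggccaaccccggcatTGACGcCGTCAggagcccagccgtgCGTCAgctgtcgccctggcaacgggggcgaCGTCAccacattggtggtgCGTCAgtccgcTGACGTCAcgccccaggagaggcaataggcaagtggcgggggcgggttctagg

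The 4 PDE4 genes, which encode the cAMP-selective enzymes blocked by rolipram, included the most and the least abundant of the 10 genes, and the groups overlapped in CPM for all 4. PDE4B (ENSG00000184588.17, chr1:65792514-66374579, plus strand of GRCh38), which encodes an isoform known for its part in inflammatory signalling, had 1987, 1348 and 1634 reads in siCtrl and 2106, 1836 and 2060 in siDDX17. These reads gave 58.7, 47.1 and 43.6 CPM in siCtrl and 54.6, 50.4 and 53.5 CPM in siDDX17, so siCtrl 1 was the highest of all libraries and the other siCtrl libraries were the lowest. The mean was 49.8 ± 7.89 CPM (SD, n = 3) in siCtrl and 52.8 ± 2.21 CPM (SD, n = 3) in siDDX17, a log2 fold change of 0.09 (SE 0.0912). Without siCtrl 1 it was 0.21 (SE 0.0589), which passed the adjusted p limit but not the fold limit.

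PDE4D (ENSG00000113448.16, chr5:58969038-60522120, minus strand), a long gene with many isoforms, was at 96.4, 80.2 and 66.8 CPM in siCtrl and at 68.7, 63.3 and 68.9 CPM in siDDX17. It had the most reads of the 10 genes, 15673 over the 6 libraries. The siDDX17 libraries were close together, whereas the siCtrl libraries spread over a coefficient of variation of 18.3%, against 1.93% from counting alone. The log2 fold change was -0.28 (SE 0.101) and was -0.14 without siCtrl 1. Leaving out siCtrl 3 instead gave -0.40, so the size of this difference depended on single control libraries.

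PDE4A (ENSG00000065989.15, chr19:10416773-10469630, plus strand) was at 6.62, 6.75 and 6.64 CPM in siCtrl and at 6.85, 6.67 and 7.03 CPM in siDDX17. The libraries differed by less than their counting error, with a coefficient of variation of 1.04% in siCtrl where counting alone gives 6.71%. The log2 fold change was 0.04 (SE 0.0964). In the authors' FPKM the groups did not overlap, with 1.05, 1.02 and 1.03 in siCtrl and 1.17, 1.12 and 1.21 in siDDX17, and the log2 fold change with scaling by library size only was 0.16. That scaling moved the median of all genes by 0.12 on the log2 scale. PDE4C (ENSG00000105650.21, chr19:18207965-18248200, minus strand) had 6, 2 and 16 reads in siCtrl and 7, 5 and 12 in siDDX17, too few to pass the filter on low counts. Other annotated genes cover 83.2% of its exon bases, so the source of these few reads is uncertain, and a difference was not detectable at this depth.

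The PDE3 genes encode the cGMP-inhibited phosphodiesterases, of which PDE3A is the target of cardiac inhibitors such as milrinone and PDE3B takes part in insulin signalling. PDE3A (ENSG00000172572.6, chr12:20368537-20688583, plus strand) had 828, 554 and 675 reads in siCtrl and 2370, 2172 and 2408 in siDDX17. Scaled to the library, this was 24.4, 19.4 and 18.0 CPM in siCtrl and 61.5, 59.6 and 62.5 CPM in siDDX17. Every siDDX17 library was above every siCtrl library by more than the whole spread within either group. The mean changed from 20.6 ± 3.40 CPM (SD, n = 3) to 61.2 ± 1.49 CPM (SD, n = 3), a log2 fold change of 1.57 (SE 0.0935) or 2.97-fold, and 1.70 without siCtrl 1. This was the largest difference among the 9 tested phosphodiesterase genes, at the 99.0th percentile of the log2 fold changes of all tested genes.

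PDE3B (ENSG00000152270.8, chr11:14643804-14872044, plus strand) had far fewer reads, 64, 46 and 68 in siCtrl and 116, 105 and 121 in siDDX17. These were 1.89, 1.61 and 1.81 CPM in siCtrl and 3.01, 2.88 and 3.14 CPM in siDDX17. The groups did not overlap, and within each group the libraries differed by less than their counting error. The log2 fold change was 0.76 (SE 0.150), and 0.80 without siCtrl 1. This log2 value was smaller than that of PDE3A.

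Both PDE7 genes, which encode cAMP-selective enzymes insensitive to rolipram, were at higher levels in siDDX17. PDE7A (ENSG00000205268.10, chr8:65714334-65842322, minus strand) had 476, 438 and 533 reads in siCtrl and 1186, 1065 and 1288 in siDDX17. Scaled to the library, this was 14.1, 15.3 and 14.2 CPM in siCtrl and 30.8, 29.2 and 33.4 CPM in siDDX17. The lowest siDDX17 library was well above the highest siCtrl library. The log2 fold change was 1.10 (SE 0.0771) or 2.15-fold, 1.07 without siCtrl 1, and from 1.05 to 1.14 over the fits that left 1 library out.

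PDE7B (ENSG00000171408.13, chr6:135851701-136195574, plus strand) had 32, 26 and 29 reads in siCtrl and 71, 60 and 79 in siDDX17. Scaled to the library, this was 0.945, 0.909 and 0.774 CPM in siCtrl and 1.84, 1.65 and 2.05 CPM in siDDX17, with no overlap. The log2 fold change was 1.08 (SE 0.199), close to that of PDE7A but with a larger standard error. It was 1.13 without siCtrl 1. It fell to 0.99 at the lowest when 1 library was left out, and then lay under the fold limit of the calls, which happened without siCtrl 3 and without siDDX17 3.

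PDE8A (ENSG00000073417.14, chr15:84980440-85139145, plus strand) encodes a cAMP-selective enzyme of high affinity that is insensitive to the general inhibitor IBMX. It had 685, 501 and 649 reads in siCtrl and 1127, 972 and 1133 in siDDX17. Scaled to the library, this was 20.2, 17.5 and 17.3 CPM in siCtrl and 29.2, 26.7 and 29.4 CPM in siDDX17. The groups were apart, with a log2 fold change of 0.63 (SE 0.0806) or 1.55-fold, and 0.70 without siCtrl 1.

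PDE10A (ENSG00000112541.13, chr6:165327287-165988117, minus strand), which encodes a dual cAMP and cGMP phosphodiesterase best known in striatal neurons, had 86, 40 and 95 reads in siCtrl and 183, 131 and 159 in siDDX17. Scaled to the library, this was 2.54, 1.40 and 2.53 CPM in siCtrl and 4.75, 3.59 and 4.13 CPM in siDDX17. The groups did not overlap, but siCtrl 2 was far below the other siCtrl libraries, and the coefficient of variation in siCtrl was 30.5% where counting alone gives 11.6%. The log2 fold change was 0.93 (SE 0.198). It was 1.03 without siCtrl 1 and 0.70 without siCtrl 2, so siCtrl 2 added to the difference.

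**Figure D1:**
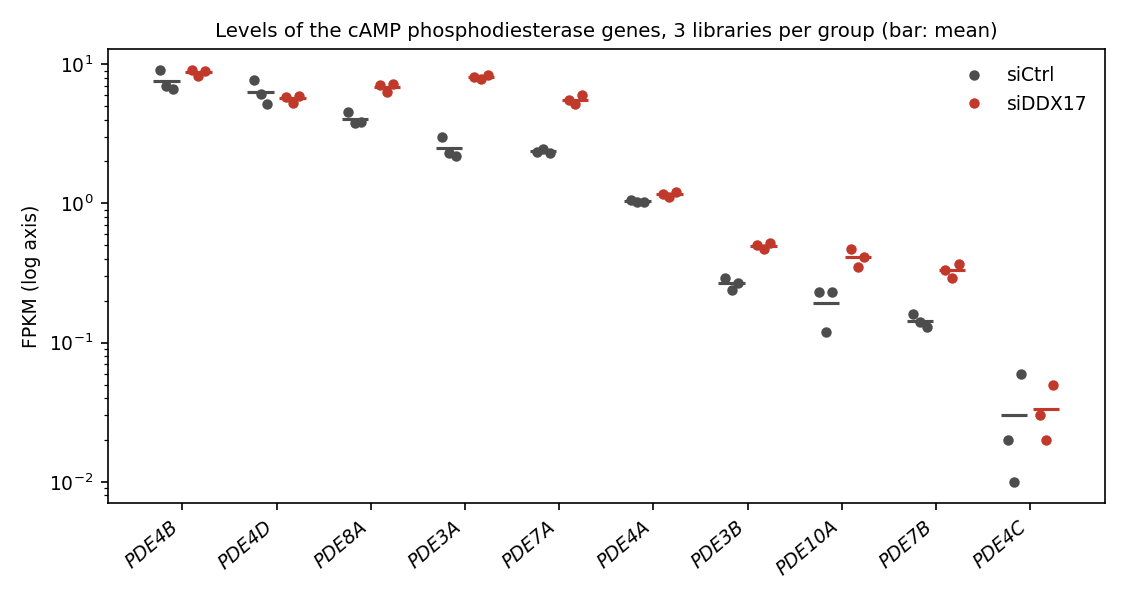
FPKM of the 10 genes on a log axis, with 1 point for each library and a bar at the mean of each group of 3. PDE3A moved from between 2.18 and 3.02 in siCtrl to between 7.78 and 8.36 in siDDX17, whereas the PDE4B, PDE4C and PDE4D points of the groups overlap.

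**Figure D2:**
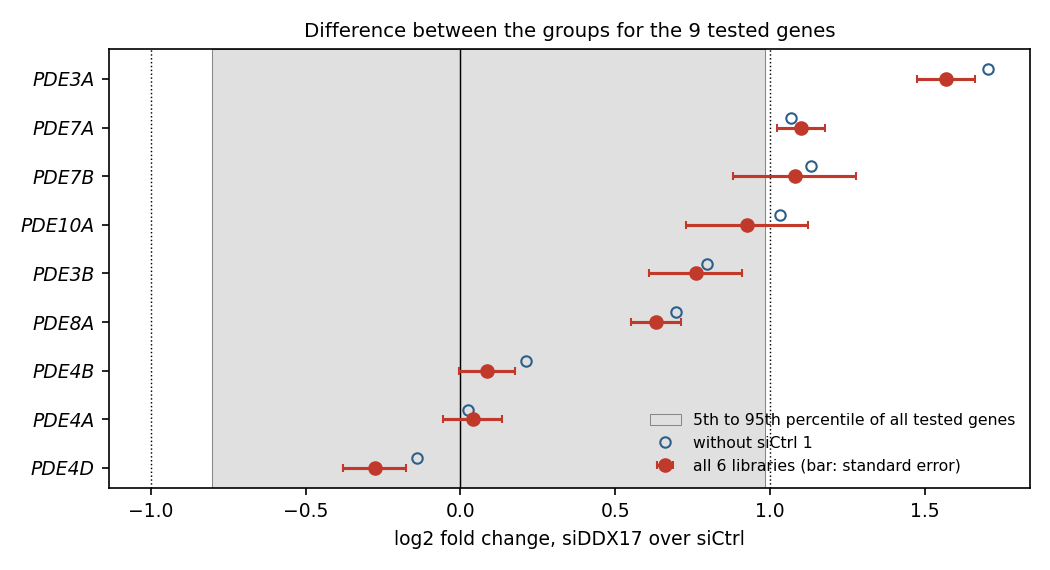
Log2 fold change of siDDX17 over siCtrl for the 9 tested genes with its standard error (filled), and the same without siCtrl 1 (open), over the 5th to 95th percentile of all tested genes, -0.80 to 0.98. PDE3A, PDE7A and PDE7B lie past the dotted line at a log2 fold change of 1, PDE4A and PDE4B lie near 0, and PDE4D lies at -0.28.

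Of the 10 genes 9 passed the filter on low counts and 1, PDE4C, did not. A call required an adjusted p below 0.05 with a log2 fold change beyond 1 in either direction. By these limits 3 of the 9 (PDE3A, PDE7A and PDE7B) were called higher and 0 lower, where 4.65% of all tested genes were called higher and 2.92% lower. Without the fold limit the counts were 6 higher (PDE3B, PDE8A and PDE10A in addition) and 1 lower (PDE4D), where 24.5% of all tested genes were higher and 24.3% lower. The 6 stayed past that limit under all 14 alternatives, whereas PDE4D did not in 7 of them: with library size only, in both limma fits, and without siCtrl 2, siDDX17 1, siDDX17 2 or siDDX17 3. The groups did not overlap, with siDDX17 higher, for the same 6 genes, where 28.8% of all tested genes had siDDX17 above siCtrl and 27.7% had it below. The median log2 fold change of the 9 genes was 0.76, and that of all tested genes was 0.01. Since the genes were selected with this contrast known, nothing is read from these counts. Without siCtrl 1 the count called higher was 4, with PDE10A added, and PDE4B passed the adjusted p limit as higher.

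Levels were compared between genes in FPKM, which the authors had divided by gene length. In siCtrl the order was PDE4B at 7.57 ± 1.34 (SD, n = 3), PDE4D at 6.30 ± 1.24, PDE8A at 4.05 ± 0.437, PDE3A at 2.50 ± 0.457, PDE7A at 2.37 ± 0.0643, PDE4A at 1.03 ± 0.0153, PDE3B at 0.267 ± 0.0252, PDE10A at 0.193 ± 0.0635, PDE7B at 0.143 ± 0.0153 and PDE4C at 0.030 ± 0.0265. PDE4B and PDE4D, PDE3A and PDE7A, and PDE10A and PDE7B were neighbours whose libraries overlapped. In siDDX17 PDE3A, at 8.09 ± 0.292 (SD, n = 3), stood next to PDE4B at 8.76 ± 0.447, with overlapping libraries. PDE8A followed at 6.85 ± 0.445, then PDE4D at 5.68 ± 0.332 and PDE7A at 5.55 ± 0.448, which overlapped, and PDE4A at 1.17 ± 0.0451. PDE3B, PDE10A and PDE7B, at 0.497, 0.410 and 0.330 FPKM, overlapped with their neighbours, and PDE4C was last at 0.033 FPKM. With CPM per kilobase of GENCODE exons in place of FPKM, PDE7B stood above PDE10A in both groups and above PDE3B in siDDX17, and PDE4D stood above PDE8A in siDDX17.

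The summed FPKM of the 10 genes was 28.4, 23.1 and 21.9 in siCtrl and 38.1, 35.1 and 38.99 in siDDX17. Within this sum the PDE4 part was 17.8, 14.1 and 12.9 FPKM in siCtrl and 16.1, 14.7 and 16.1 FPKM in siDDX17, so it overlapped, and siCtrl 1 had the highest value. The PDE3 part was 3.31, 2.53 and 2.45 FPKM in siCtrl and 8.63, 8.25 and 8.88 FPKM in siDDX17. The PDE4 genes thus held 60.9% ± 1.84 (SD, n = 3) of the sum in siCtrl and 41.9% ± 0.449 in siDDX17, while the PDE3 genes held 11.3% ± 0.353 and 23.0% ± 0.470. The PDE7 genes held 10.4% ± 1.38 in siCtrl and 15.7% ± 0.601 in siDDX17, and PDE8A held 16.6% ± 0.771 and 18.3% ± 0.221. Shares of 1 sum depend on each other, and FPKM measures RNA, not enzyme. Between libraries FPKM was scaled by depth only. On log2(FPKM + 0.1) the median log2 fold change of all tested genes was 0.12 above that of the main fit. The part of this scaling in the sums was not tested. In these cultures a different number of cells that express a gene and a different amount of RNA per cell cannot be told apart.

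**Figure D3:**
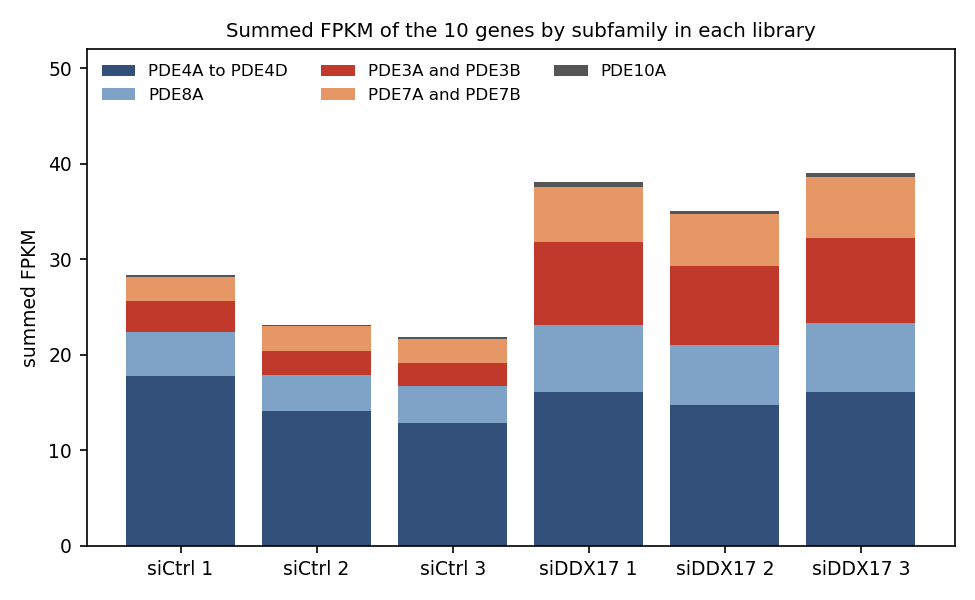
Summed FPKM of the 10 genes in each of the 6 libraries, stacked by subfamily. The sum was between 21.9 and 28.4 in siCtrl and between 35.1 and 38.99 in siDDX17, and the PDE4 part at the bottom was between 12.9 and 17.8 in all 6 libraries.

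The exons of PDE3A share 3.04% of their bases with PDE3A-AS1 on the opposite strand, those of PDE7B share 7.61% with PDE7B-AS1 and those of PDE7A share 7.04% with neighbouring genes. PDE4D and PDE10A share 1.52% and 1.49%, and PDE4A, PDE4B, PDE3B and PDE8A share none. The libraries kept strand information, but how it was used in counting is not given in the sources used here. The seed of an siRNA strand is its bases 2 to 8, with which small RNAs pair to messenger RNAs. The 7-base match to the seed of the DDX17 siRNA antisense strand, TATTGCT, was in the 3′ UTR of 3 of the 9 tested phosphodiesterase genes, PDE3A, PDE7A and PDE10A, which were all at higher levels in siDDX17. It was in 14.5% of the 12987 tested genes with a 3′ UTR. The match to the control siRNA sense strand, TCGGAGA, was in 0 of the 9 and in 2.13% of those genes. The antisense strand of the control siRNA and the sense strand of the DDX17 siRNA were not searched. The counts for the siRNAs thus concern unlike strands. The part of seed matches in the differences was not tested.

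The other genes of the cAMP pathway were grouped in 11 lists by role, and adjusted p values for them are over all 15615 tested genes. Of 112 genes in the lists 6 were not listed in the table and 24 had too few reads. Of the 82 tested, 11 were called higher and 2 lower, where 4.65% and 2.92% of all tested genes were. With no fold limit 31 were higher and 15 lower, where 24.5% and 24.3% of all tested genes were, and the counts of each list below stand against the same shares. The median log2 fold change was 0.02. Of the 11 called higher, PDE11A, RAPGEF4 and NR4A3 passed the low-count filter only through the siDDX17 libraries. With at least 10 reads required in every library the calls were 8 higher and 2 lower, where 510 and 338 of 14297 tested genes were. Without siCtrl 1 the calls were 11 higher and 2 lower, but PER1 lost its call and PKIA (log2 fold change -1.06) was called lower. In that fit, with no fold limit, 1 receptor gene rose where 2 did with all libraries, and 2 other effectors rose in place of 3. Also, 2 genes of the CREB family rose in place of 0, and 3 CREB targets fell in place of 1. Of the anchoring proteins 5 fell in place of 4, and 1 cAMP export gene rose in place of 0. The lists were drawn up with earlier results of these data known. Below, genes past the adjusted p limit but not the fold limit were named after their values had been seen, apart from the most abundant gene of each list.

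Of the 6 other phosphodiesterases that hydrolyse cAMP 5 were tested, and 3 of these rose and 0 fell. PDE1B had too few reads. PDE1C, a calmodulin-dependent enzyme, was at 2.54, 1.96 and 1.87 CPM in siCtrl and at 6.88, 5.62 and 6.72 CPM in siDDX17, with a log2 fold change of 1.59 (SE 0.150, adjusted p = 1.81e-06). PDE8B, the paralog of PDE8A, was at 1.45, 1.68 and 1.12 CPM in siCtrl and at 2.85, 3.35 and 3.30 CPM in siDDX17, and rose by 1.17 on the log2 scale (adjusted p = 1.16e-04). PDE11A had only 5 to 28 reads per library and rose by 1.72 on the log2 scale (adjusted p = 0.00118). Its mean was 0.190 CPM in siCtrl and 0.635 CPM in siDDX17, and it passed the low-count filter only through the siDDX17 libraries. With at least 10 reads required in every library it was not tested, and 2 of the 3 tested genes of the list rose. The groups did not overlap for PDE1C, PDE8B or PDE11A, which were named for their calls, where 28.8% of all tested genes had siDDX17 above siCtrl. PDE1A and PDE2A did not pass, with log2 fold changes of 0.81 and 0.41. In the list of genes of the cGMP phosphodiesterases 1 of 5 tested genes rose, PDE9A. Not all of these 5 encode catalytic subunits, PDE6D and PDE6G being exceptions. PDE9A went from 0.945, 0.804 and 0.747 CPM in siCtrl to 2.02, 2.33 and 2.18 CPM in siDDX17 (log2 fold change 1.39, adjusted p = 5.44e-05). PDE6D, the most abundant gene of that list and a carrier of prenylated proteins, had a log2 fold change of 0.01 (adjusted p = 0.898).

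All 6 tested adenylyl cyclases, the enzymes that make cAMP, rose with no fold limit, and their sign was positive under every other scaling and with each library left out, although 5 of 6 passed in DESeq2 and without siCtrl 1, siDDX17 1 or siDDX17 2. ADCY3, the most abundant, was at 30.4, 31.7 and 35.8 CPM in siCtrl and at 61.9, 61.3 and 60.1 CPM in siDDX17 (log2 fold change 0.90, adjusted p = 2.24e-07). ADCY9 was called, with 6.97, 7.87 and 7.34 CPM in siCtrl and 16.4, 16.7 and 16.02 CPM in siDDX17 (log2 fold change 1.15, adjusted p = 1.90e-07). ADCY5 was called too, with 2.33, 2.13 and 2.08 CPM in siCtrl and 4.90, 5.21 and 4.15 CPM in siDDX17 (log2 fold change 1.12, adjusted p = 2.70e-05). ADCY7, ADCY1 and ADCY6, of which ADCY1 was the gene that missed the limit in those fits, rose by 0.62, 0.50 and 0.26 on the log2 scale.

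The G protein alpha subunits moved in both directions: 2 of 6 tested rose (GNAI2 and GNAZ), 2 fell (GNAI1 and GNAI3) and 2 did not pass. GNAI3 (log2 fold change -0.18) missed the limit in 6 of 14 alternatives, among them library size only and without siCtrl 2, siDDX17 2 or siDDX17 3. GNAS, which encodes the subunit that stimulates adenylyl cyclases, was at 529.7, 554.6 and 535.7 CPM in siCtrl and at 524.3, 538.8 and 510.1 CPM in siDDX17 (log2 fold change -0.04, adjusted p = 0.543). Of the receptors coupled to it 5 of 12 could be tested. PTGER4, a prostaglandin E2 receptor, rose from 0.650, 0.979 and 0.641 CPM to 1.87, 1.70 and 2.44 CPM (log2 fold change 1.43, adjusted p = 2.33e-04). MC1R fell by 0.69 on the log2 scale. ADRB1, the beta-1 adrenergic receptor, had a log2 fold change of 0.56 (adjusted p = 0.0477) that missed the limit in 6 of 14 alternatives: RLE scaling, DESeq2, and without siCtrl 1, siCtrl 3, siDDX17 2 or siDDX17 3. ADORA2B, the most abundant of these receptors, had a log2 fold change of 0.02 (adjusted p = 0.864).

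Among the PKA subunits and inhibitors 4 of 9 tested genes rose, 4 fell and 1 did not pass, while 4 rose and 2 fell with scaling by library size only. Of the catalytic subunits PRKACA fell by 0.28 and PRKACB rose by 0.45 on the log2 scale, and the regulatory subunits PRKAR1B and PRKAR2A rose by 0.89 and 0.67. PRKAR2B had a log2 fold change of 0.58 (adjusted p = 0.0333) that missed the limit in 6 of 14 alternatives. PRKAR1A, the most abundant, had a log2 fold change of -0.18 (adjusted p = 0.0563). The PKA inhibitor genes PKIB and PKIG fell. PKIB was at 17.4, 14.5 and 13.1 CPM in siCtrl and at 5.63, 6.09 and 5.58 CPM in siDDX17 (log2 fold change -1.38, adjusted p = 4.83e-07), and was the only gene of the list that was called, where 2 were called lower without siCtrl 1 or without siDDX17 3. PKIG fell by 0.28 on the log2 scale, but missed the limit with library size only. PKIA, at under 1 CPM, had a log2 fold change of -0.90 (adjusted p = 0.0483) that missed the limit in 10 of 13 alternatives.

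Of the other effectors 3 of 7 tested genes passed with higher levels and 0 with lower. RAPGEF4, an exchange factor activated by cAMP, had only 4 to 23 reads per library and rose by 1.69 on the log2 scale (adjusted p = 0.0016), and the channel gene HCN2 rose by 0.51. The third, the channel gene HCN4, had a log2 fold change of 0.87 (adjusted p = 0.0491) at under 1 CPM, and it missed the limit in 12 of 13 alternatives. RAPGEF4 passed the low-count filter only through the siDDX17 libraries. With at least 10 reads required in every library neither RAPGEF4 nor HCN4 was tested, and 1 of 5 tested effectors rose. POPDC3, the most abundant, had a log2 fold change of -0.05 (adjusted p = 0.567). Of the anchoring proteins, which hold PKA and phosphodiesterases at places in the cell, 7 of 17 tested rose and 4 fell. ARRB1, an arrestin that brings PDE4 enzymes to activated receptors, was at 5.99, 7.90 and 8.38 CPM in siCtrl and at 19.4, 20.7 and 19.8 CPM in siDDX17 (log2 fold change 1.43, adjusted p = 2.64e-07). AKAP6 rose by 1.30 on the log2 scale, from 0.797, 1.01 and 0.774 CPM to 2.15, 1.89 and 2.28 CPM (adjusted p = 1.17e-04). RACK1, a scaffold that binds PDE4D, was listed under its older symbol GNB2L1 and had a log2 fold change of -0.20 (adjusted p = 0.0121). This was -0.08 with library size only, and it missed the limit there, in both limma fits, without siDDX17 1 and without siDDX17 3.

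The CREB family and its coactivators, which turn the signal into transcription, had no gene called among 8 tested. With no fold limit 0 rose and 2 fell, CRTC2 by 0.34 (adjusted p = 8.68e-04) and EP300 by 0.36 on the log2 scale, whereas 1 rose and 1 fell with scaling by library size only. Of 12 tested genes known as CREB targets 3 rose, 1 fell and 8 did not pass. NR4A3 had 2 to 15 reads per library and a log2 fold change of 1.42 (adjusted p = 0.0171) that missed the limits of a call in 5 of 13 alternatives. With at least 10 reads required in every library it was not tested, and of 10 tested targets 2 rose and 1 fell. FOS and PPARGC1A rose by 0.65 and 0.59, and PPARGC1A missed the limit without siDDX17 3. PER1, a clock gene, was at 18.8, 14.3 and 13.2 CPM in siCtrl and at 6.59, 7.76 and 7.24 CPM in siDDX17 (log2 fold change -1.10, adjusted p = 1.04e-05), and the log2 fold change was -0.95 without siCtrl 1, under the fold limit. DUSP1, the most abundant, had a log2 fold change of -0.04 (adjusted p = 0.654). The cAMP exporter gene ABCC4 had a log2 fold change of 0.14 (adjusted p = 0.0611) and ABCC5 fell by 0.48.

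**Figure D4:**
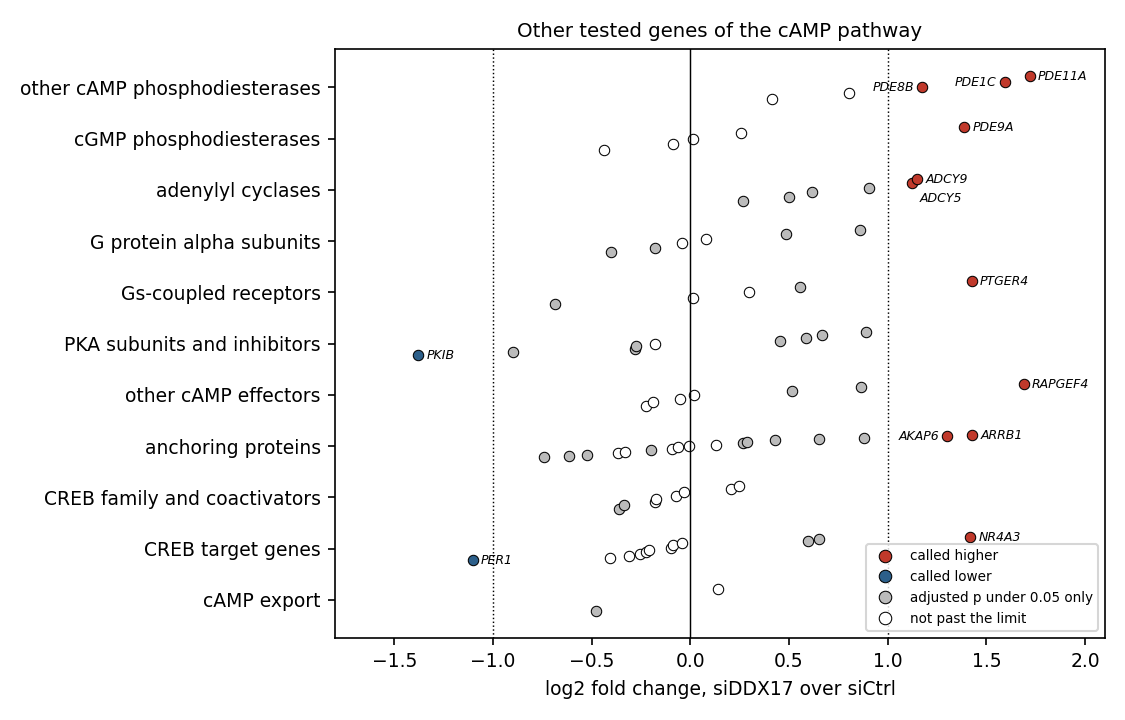
Log2 fold change of siDDX17 over siCtrl for the 82 tested genes of the 11 pathway lists, 1 point per gene, with dotted lines at -1 and 1. Red points were called higher and blue points lower, grey points passed the adjusted p limit only, and the 6 adenylyl cyclases all lie above 0.

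Among tested genes outside the 10, the nearest to PDE3A in pattern over the 6 libraries were ANKRD1, HKR1 and PDE1C, at Euclidean distances of 0.105, 0.137 and 0.182 in log2 CPM centred on each gene's mean. ANKRD1 went from a mean of 17.01 CPM in siCtrl to 48.8 CPM in siDDX17, with a log2 fold change of 1.52, and the zinc finger gene HKR1 from 4.10 to 12.4 CPM, with one of 1.59. The distance over 6 libraries mostly reflects the difference between the groups.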

How the data were processed

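RNA-seq of polyadenylated RNA was analysed for 3 siCtrl and 3 siDDX17 libraries of A549 cells. The authors mapped reads to GRCh38 with TopHat2, allowing up to 4 mismatches, and deposited raw counts of uniquely mapped reads per gene. They also deposited FPKM per gene (scaled by length and depth, in steps of 0.01). The counting program and its annotation are not given in the sources used here. Totals were between 30658136 and 39182371 reads, so genes with few reads have wide errors.

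The counts were fitted with edgeR 4.0.16 in R 4.3.3 (TMM, filterByExpr, glmQLFit, glmQLFTest, Benjamini-Hochberg adjustment over 15615 genes) and a call required an adjusted p below 0.05 with a log2 fold change beyond 1 in either direction. Alternatives were RLE scaling, library size only, DESeq2 1.42.0, other low-count filters, the replicate block, limma 3.58.1 on log2(FPKM + 1) and log2(FPKM + 0.1), the limits of the methods (unadjusted p under 0.01, 1.5-fold), no fold limit, and each library left out. The phosphodiesterase genes and the lists were chosen with earlier results of these data known. Named were all 10 of them, DDX17, every called gene and the gene with the highest FPKM of each list, and the 3 genes nearest to PDE3A. Locations are from GENCODE 44. Start windows are from RefSeq (GRCh38.p14), and those of PDE7A are not reported here.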

Additional observations from a re-analysis of the deposited data

How the results depend on the processing

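The log2 fold changes of PDE3A, PDE7A, PDE7B, PDE10A, PDE3B and PDE8A were positive and that of PDE4D was negative under all 14 alternatives to the reported fit. PDE4B ranged from -0.01 to 0.22. PDE4C, tested in 6 of the alternatives, ranged from -0.54 to 0.06. Of the phosphodiesterase genes 2 to 4 were called higher when each library was left out, and 0 lower, and 4 were called higher with library size only, where PDE10A was added. With limma on log2(FPKM + 1), whose pseudocount shrinks genes of low FPKM, the calls were 160 higher and 89 lower over all genes, 1 higher among the phosphodiesterase genes, and 1 higher and 0 lower in the pathway lists. With limma on log2(FPKM + 0.1), 210 genes were lower over all genes and 1 in the pathway lists, and with library size only 1 pathway gene was lower. The limits of the methods, applied to the fit used here, gave 1713 higher and 1254 lower over all genes. These counts are above those the paper reports, and the reason was not tested. The same limits gave 6 phosphodiesterase genes higher, and 20 higher and 5 lower in the pathway lists. With no fold limit there were 3819 higher and 3798 lower over all genes, 6 higher and 1 lower among the phosphodiesterase genes, and 31 higher and 15 lower in the pathway lists.

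With the replicate number as a block the calls were 724 higher and 444 lower over all genes, 3 and 0 among the phosphodiesterase genes and 11 and 2 in the pathway lists. The correlations of deviations of libraries with the same number were 0.007, 0.04 and -0.06, so the numbers were not taken as pairs.

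Of the 13 called pathway genes 12 lost the call with limma on log2(FPKM + 1) and 7 with limma on log2(FPKM + 0.1), namely PDE8B, PDE11A, ADCY5, RAPGEF4, AKAP6, NR4A3 and PER1. NR4A3 also lost it with DESeq2, without siCtrl 2 and without siDDX17 1, and PER1 without siCtrl 1 and with library size only (-0.98). Some log2 fold changes near 0 changed sign. With library size only, limma on log2(FPKM + 1) and limma on log2(FPKM + 0.1), GNAS was at 0.081, 0.085 and 0.086, POPDC3 at 0.067, 0.071 and 0.074, and DUSP1 at 0.076, 0.088 and 0.089. Library size only and limma on log2(FPKM + 0.1) moved the median of all genes by 0.12. When each library was left out, PDE6D ranged from -0.063 to 0.087, ADORA2B from -0.051 to 0.040 and DUSP1 from -0.14 to 0.0087. For the other changes of calls the cause was not tested. PDE11A, RAPGEF4 and NR4A3 rest on fewer than 30 reads per library, and they passed the low-count filter only through the siDDX17 libraries.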
